A study of Mus musculus with 180 samples.

Results

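Foxo1, Foxo3, Txnip, Txn1, Sod1, Sod2, Cat, Gpx1, Prdx1 and Prdx2 were followed through single blood stem and progenitor cells. The genes were chosen by name, and all 10 are among the 14825 genes of the deposited expression table. They were read in 180 cells of 4 sorted populations of C57BL/6 mice, each cell being a library of its own. The CD11b+CD48+SK cells (47 cells) were donor-derived Sca1+ c-Kit+ cells sorted at Week 8 after transplantation from primary recipients, which were irradiated CD45.1+ mice given pIpC. Their donor MPP came from Mx1cre/RosaLSL-Hoxb5-EGFP/+ mice, in which pIpC induces Cre from the Mx1 promoter and Cre switches on ectopic Hoxb5. WT-MPP (multipotent progenitors, 41 cells) and BM HSC (bone marrow haematopoietic stem cells, 36 cells) came from mice of 8 weeks that are written Hoxb5LSL/+ in the labels and RosaLSL-Hoxb5-EGFP/+ in the study's methods, the same cassette without Cre. FL HSC (fetal liver HSC, 56 cells) came from Hoxb5LSL/+ embryos at Day14.5 and were sorted as CD45.2+ Lin- cells positive for Sca1, c-Kit, Mac1 and CD150. Transplantation, irradiation and pIpC go with the CD11b+CD48+SK cells alone, so their share in any difference cannot be told apart from that of Hoxb5, and transplanted control MPP were not analysed here.

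FOXO transcription factors are held in the cytoplasm by AKT signalling and enter the nucleus when growth factor signals are low, where they switch on genes for cell cycle arrest and for defence against reactive oxygen. In HSC they are known for keeping the cells quiescent and their oxidant level low. TXNIP, the product of a Foxo target gene, is an alpha-arrestin that binds and inhibits thioredoxin and lowers glucose uptake. Thioredoxin in turn hands electrons to the peroxiredoxins, which remove hydrogen peroxide alongside catalase and glutathione peroxidase, while the superoxide dismutases make that peroxide out of superoxide.

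The 3 promoters shown here belong to Txnip and Cat, the genes of the set with the largest differences between populations, and to Prdx1, 1 of the 2 genes with the core sequence read by Nrf2. In mouse build GRCm38 (GENCODE M21), Txnip lies on the plus strand at chr3:96557957-96561883, Cat on the minus strand at chr2:103453849-103485160 and Prdx1 on the plus strand at chr4:116685544-116700822, all annotated as protein coding. Each sequence below is the 250 bases before the start of the RefSeq transcript (GRCm38.p6), at chr3:96557707-96557956 for Txnip, chr2:103485154-103485403 for Cat and chr4:116685349-116685598 for Prdx1, written 5′ to 3′ on the strand of the gene. Capitals mark matches to short motifs that were searched on both strands: the FOXO core GTAAACA, the CCAAT box, the antioxidant response element core TGACNNNGC read by Nrf2, and a pair of CACGNG elements set 5 bases apart, as in the carbohydrate response element read by the Mlx and Mlxip proteins.
Txnip: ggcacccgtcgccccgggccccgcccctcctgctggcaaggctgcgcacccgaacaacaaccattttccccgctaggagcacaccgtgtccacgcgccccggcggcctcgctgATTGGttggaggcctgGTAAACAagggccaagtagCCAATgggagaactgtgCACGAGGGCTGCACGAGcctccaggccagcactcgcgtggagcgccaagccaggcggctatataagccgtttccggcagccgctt
Cat: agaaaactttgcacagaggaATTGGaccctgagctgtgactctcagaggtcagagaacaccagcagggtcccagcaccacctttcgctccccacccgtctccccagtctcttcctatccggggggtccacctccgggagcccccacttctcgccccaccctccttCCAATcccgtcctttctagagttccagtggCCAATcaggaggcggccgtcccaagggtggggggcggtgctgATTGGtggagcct
Prdx1: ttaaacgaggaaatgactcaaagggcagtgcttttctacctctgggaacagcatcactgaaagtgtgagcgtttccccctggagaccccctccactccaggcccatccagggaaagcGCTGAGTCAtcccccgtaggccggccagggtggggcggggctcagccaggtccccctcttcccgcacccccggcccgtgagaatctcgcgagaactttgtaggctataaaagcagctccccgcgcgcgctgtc
The Txnip window held the FOXO core at -121 to -115 from the start, a CCAAT box on either side of it, and the paired CACGNG elements at -85 to -69. The FOXO core was found in the same window of 3.17% of 32851 mouse promoters and in no other gene of the 10, and the paired elements were found in 0.0457% of promoters. Cat held 4 CCAAT boxes, a motif of 33.8% of promoters and of 5 of the 10 genes. Prdx1 held the antioxidant core at -133 to -125, and Sod1 held it at -56 to -48, against 10.2% of promoters. A match describes letters in a window, and a gene without one may still be bound elsewhere.

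Expression was deposited in TPM, which corrects for transcript length and scales every cell to the same total, so levels can be set side by side between genes. Each cell value was put on the scale log2(TPM+1) and averaged within a population, differences between populations were taken between these means, and a gene was counted as past the fold when that difference reached 1, a 2-fold change on this scale, in either direction. The pseudocount of 1 makes differences of low genes smaller. The labels tie no cell to an animal, so each population stands as a single sample. No test was made, the SD describes the spread between cells only, and intervals on shares of cells cover the counting of cells only. A gene is called detected in a cell at 1 TPM or above. Read depth cannot be recovered from TPM, and the number of genes detected per cell, with medians between 3844 in WT-MPP and 5206.5 in FL HSC, is used in its place.

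The labels were checked against marker genes. Cd48 was detected in all CD11b+CD48+SK cells and in at most 17.9% of the cells of any other population, and Slamf1, which encodes CD150, in 6.38% of CD11b+CD48+SK cells against 55.4% of FL HSC and 63.9% of BM HSC. The stem cell gene Fgd5 was at 0 in every CD11b+CD48+SK cell, but elsewhere too it was detected in at most 32.1% of a population's cells. The whole stem cell list, which includes Cd34, Flt3 and Cd48, had its highest median sum in CD11b+CD48+SK cells (2716 TPM). Its lowest was that of FL HSC (1166 TPM). Itgam, which encodes the sort marker CD11b, also called Mac1, was detected in 36.2% of CD11b+CD48+SK cells. Its share was 16.1% among FL HSC and at most 4.88% elsewhere. Haemoglobin Hbb-b2 was detected in all FL HSC and in at most 14.9% of the cells elsewhere, while the erythroid factor gene Klf1 was detected in 3.57% of FL HSC. GEO's source field gives bone marrow for all cells, FL HSC included. The 11 proliferation genes of the marker list (such as Mki67, Pcna and Mcm5) summed to medians of 871 TPM in CD11b+CD48+SK cells and 686 TPM in FL HSC, against 309 TPM in WT-MPP and 372 TPM in BM HSC. The mast cell and basophil list summed to a median of 144 TPM in CD11b+CD48+SK cells (0 to 9248 TPM) and to 0 TPM in the other populations, with 4 of its 6 genes seen. The lymphoid list, with 5 of its 13 genes seen in CD11b+CD48+SK cells, summed there to a median of 406 TPM, against 2.31 TPM in WT-MPP and at most 193 TPM in either HSC population. The megakaryocyte list had a median of 4.10 TPM in CD11b+CD48+SK cells and between 433 and 995 TPM elsewhere. The part of these cell types in the results was not tested. The proliferation sums ranged widely within each population, from 0 to 2835 TPM in WT-MPP and from 2.32 to 3899 TPM in CD11b+CD48+SK cells.

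**Figure D1:**
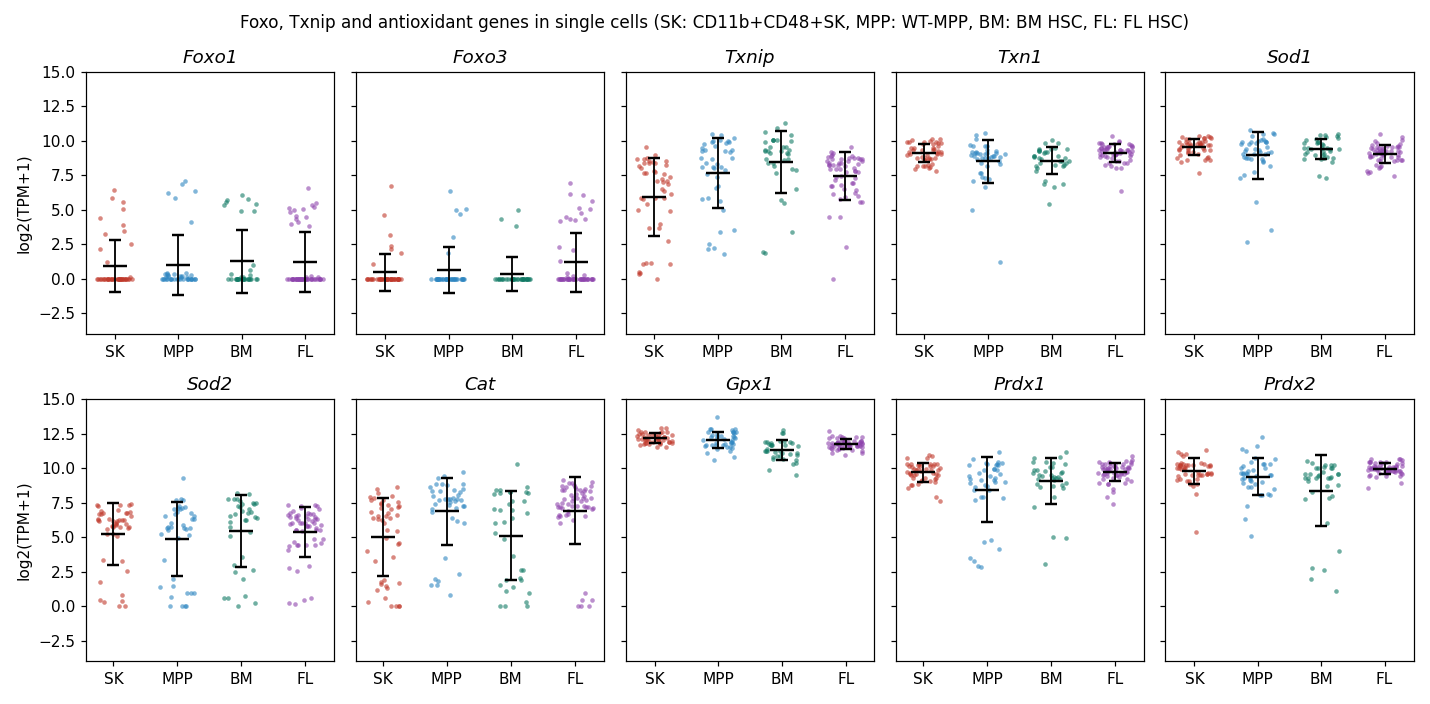
Level of each of the 10 genes in every cell, as log2(TPM+1), with 1 point per cell and black bars for the mean ± SD over cells. Gpx1 is the highest gene in nearly every cell, Foxo1 and Foxo3 are at 0 in most cells, and Txnip, Sod2 and Cat spread from 0 or near 0 to over 100 TPM inside each population.

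The Foxo genes themselves were near the lower end of what the libraries could show. Foxo1, the FOXO factor also central to lymphocyte development, had a median of 0 TPM in all 4 populations, with highest cells at 65.9 TPM in BM HSC, 96.5 TPM in FL HSC, 134 TPM in WT-MPP and 84.6 TPM in CD11b+CD48+SK cells. It was detected in 9 of 36 BM HSC (25%, exact Clopper-Pearson 95% interval 12.1 to 42.2%), 14 of 56 FL HSC (25%, 14.4 to 38.4%), 6 of 41 WT-MPP (14.6%, 5.57 to 29.2%) and 11 of 47 CD11b+CD48+SK cells (23.4%, 12.3 to 38%). These 4 intervals overlap throughout.

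Foxo3, the family member best known for the upkeep of adult HSC, also had a median of 0 TPM everywhere. It was detected in 3 of 36 BM HSC (8.33%, 1.75 to 22.5%), 15 of 56 FL HSC (26.8%, 15.8 to 40.3%), 6 of 41 WT-MPP (14.6%, 5.57 to 29.2%) and 7 of 47 CD11b+CD48+SK cells (14.9%, 6.20 to 28.3%). FL HSC had the highest share and the highest mean log2 level (1.22), and BM HSC the lowest of both (0.37), but the intervals of these shares overlap and FL HSC also had the most genes detected per cell. On the mean of log values no difference of either gene between populations reached the fold, but Foxo3 depended on the averaging. Between the logs of the mean TPM, FL HSC were above BM HSC by 1.86 and CD11b+CD48+SK cells minus FL HSC gave -1.28, and with a pseudocount of 0.1 Foxo3 in FL HSC was past the fold against all 3 other populations (1.53 above BM HSC, 1.06 above WT-MPP and -1.25 for CD11b+CD48+SK cells minus FL HSC). Within cells of 4000 to 5500 genes detected, Foxo1 in BM HSC was past the fold, at -1.28 for CD11b+CD48+SK cells and -1.10 for WT-MPP, each minus BM HSC. Only 17 of 41 WT-MPP, 23 of 36 BM HSC, 31 of 47 CD11b+CD48+SK cells and 38 of 56 FL HSC lay in that range. Both Foxo genes together were detected in 4 of 56 FL HSC, 1 of 36 BM HSC, and none of the 41 WT-MPP or 47 CD11b+CD48+SK cells, for which the exact interval allows up to 8.60% and 7.55%. At these levels an undetected gene may be a missed transcript, and the presence of either Foxo gene in single cells is not read further.

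Txnip varied most between populations. In CD11b+CD48+SK cells it ran from 0 TPM through a median of 127 TPM to 738 TPM. In WT-MPP it ran from 2.5 TPM through 343 TPM to 1431 TPM, and in BM HSC from 2.67 TPM through 590.1 TPM to 2542 TPM. In FL HSC it ran from 0 TPM through 253 TPM to 768 TPM. BM HSC thus held the most Txnip and CD11b+CD48+SK cells the least, although the cells of all populations overlapped. The mean log2 level was 8.49 ± 2.26 (SD, 36 cells) in BM HSC, 7.70 ± 2.55 (41 cells) in WT-MPP, 7.45 ± 1.72 (56 cells) in FL HSC and 5.93 ± 2.83 (47 cells) in CD11b+CD48+SK cells. The neighbours in this order had overlapping interquartile ranges, and the WT-MPP and FL HSC means lay only 0.25 apart.

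CD11b+CD48+SK cells were lower in Txnip than WT-MPP by 1.77 on the log2 scale (5.01% of all 10856 genes kept were lower by the fold in that comparison), than BM HSC by 2.56 (11.8% of genes) and than FL HSC by 1.52 (20.9% of genes). FL HSC were lower than BM HSC by 1.04 (5.44% of genes). In the CD11b+CD48+SK cells 15 of 47 cells were below 50 TPM of Txnip, against 4 of 36 BM HSC, 6 of 56 FL HSC and 8 of 41 WT-MPP. The difference of CD11b+CD48+SK cells from FL HSC was -0.61 when taken between the logs of the mean TPM.

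Txn1, the cytosolic thioredoxin that TXNIP inhibits, was far more even. Its median was 433 TPM in BM HSC (lowest 41.4, highest 1091 TPM), 603 TPM in FL HSC (81.8 to 1326 TPM), 474 TPM in WT-MPP (1.32 to 1534 TPM) and 569 TPM in CD11b+CD48+SK cells (222 to 1124 TPM). CD11b+CD48+SK cells and FL HSC lay together at mean log2 levels of 9.11 and 9.13, BM HSC and WT-MPP together at 8.58 and 8.53, and no difference between populations reached the fold.

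Setting the inhibitor against its target inside each cell removes the scaling between cells. Txnip was above Txn1 in 63.9% of BM HSC (46.2 to 79.2%) and in 46.3% of WT-MPP (30.7 to 62.6%), but in only 14.9% of CD11b+CD48+SK cells (6.20 to 28.3%) and 10.7% of FL HSC (4.03 to 21.9%). The median log2 ratio of Txnip to Txn1 was 0.42 in BM HSC, -0.16 in WT-MPP, -1.35 in FL HSC and -2.47 in CD11b+CD48+SK cells. By shares and medians, the adult, untransplanted populations stood on one side and the FL HSC and CD11b+CD48+SK cells on the other. The cells overlapped, with quartiles of the ratio at -3.33 and 1.09 in WT-MPP, -2.69 and -0.57 in FL HSC and -4.68 and -0.89 in CD11b+CD48+SK cells. The medians of the proliferation sums given above had the same split. The part of proliferation in this split was not tested.

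Prdx1 and Prdx2 encode the cytosolic peroxiredoxins, which are reduced by thioredoxin. Prdx1 had a median of 679.7 TPM in BM HSC (7.45 to 2315 TPM), 906 TPM in FL HSC (170.3 to 1916 TPM), 577 TPM in WT-MPP (6.07 to 2269 TPM) and 884 TPM in CD11b+CD48+SK cells (192 to 2008 TPM). CD11b+CD48+SK cells and FL HSC were alike in level (mean log2 9.69 and 9.71) and WT-MPP were lowest (8.45). The difference from WT-MPP was 1.24 for CD11b+CD48+SK cells, where 19% of genes were higher by the fold, and 1.26 for FL HSC, where 33.9% were. Prdx1 was thus one of many genes in each.

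These Prdx1 differences went with a tail of low cells. Prdx1 was below 50 TPM in 7 of 41 WT-MPP and 3 of 36 BM HSC, and in none of the CD11b+CD48+SK cells or FL HSC. Between the logs of the median TPM the difference from WT-MPP was 0.61 for CD11b+CD48+SK cells and 0.65 for FL HSC, and between the logs of the mean TPM it was 0.43 for each. Within cells of 4000 to 5500 genes detected, BM HSC rather than WT-MPP were lowest, 0.50 under WT-MPP and 1.10 under CD11b+CD48+SK cells. That range kept 17 of 41 WT-MPP and 23 of 36 BM HSC.

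Prdx2, which is also the main peroxiredoxin of red cells, had a median of 651 TPM in BM HSC (1.17 to 1493 TPM), 989 TPM in FL HSC (380.2 to 1639 TPM), 735 TPM in WT-MPP (33.7 to 4960.1 TPM) and 988 TPM in CD11b+CD48+SK cells (40.4 to 2554 TPM). BM HSC were lowest by mean log2 level at 8.37, and FL HSC highest at 9.96. The difference from BM HSC was 1.59 in FL HSC (25.6% of genes higher by the fold), 1.40 in CD11b+CD48+SK cells (13.4% of genes) and 1.02 in WT-MPP (2.67% of genes). Here too a few cells counted, since 5 of 36 BM HSC were below 50 TPM of Prdx2. By the log of the median TPM the same differences were 0.60, 0.60 and 0.18. Over the FL HSC the sum of Hbb-b1 and Hbb-b2, globins whose near-identical copies may share reads, had a Spearman's rho of -0.04 with Prdx2 and 0.37 with Prdx1.

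Sod1, the copper-zinc superoxide dismutase of the cytosol, was high and steady. Its median was 701 TPM in BM HSC (161 to 1473 TPM), 573 TPM in FL HSC (174 to 1446 TPM), 616 TPM in WT-MPP (5.24 to 1809 TPM) and 828 TPM in CD11b+CD48+SK cells (207 to 1300.1 TPM). Mean log2 levels lay between 8.95 in WT-MPP and 9.53 in CD11b+CD48+SK cells, and no pair of populations reached the fold.

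Sod2, the manganese enzyme of mitochondria, was lower and more scattered, with medians of 90.5 TPM in BM HSC (0 to 286 TPM), 62.6 TPM in FL HSC (0.10 to 162 TPM), 51.4 TPM in WT-MPP (0 to 636 TPM) and 65.5 TPM in CD11b+CD48+SK cells (0 to 168 TPM). Its mean log2 levels lay between 4.87 and 5.44, and no difference of these means reached the fold. Sod2 in WT-MPP depended on the cells and the averaging, since within cells of 4000 to 5500 genes detected it was exceeded by 1.19 in CD11b+CD48+SK cells and 1.52 in FL HSC, and between the logs of the mean TPM the same differences were -0.26 and -0.35. Sod1 was above Sod2 in every cell of 3 populations and in 39 of 41 WT-MPP, and the median log2 ratio of Sod1 to Sod2 was between 2.94 in BM HSC and 3.49 in CD11b+CD48+SK cells.

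Cat, which encodes the catalase of peroxisomes, split the populations in a way of its own. Its median was 209 TPM in WT-MPP (0.74 to 834 TPM) and 187 TPM in FL HSC (0 to 574 TPM), against 76.7 TPM in CD11b+CD48+SK cells (0 to 390.1 TPM) and 73.3 TPM in BM HSC (0 to 1257 TPM). The mean log2 levels of WT-MPP and FL HSC were 6.88 ± 2.44 (SD, 41 cells) and 6.92 ± 2.44 (56 cells), and those of CD11b+CD48+SK cells and BM HSC 5.0 ± 2.84 (47 cells) and 5.11 ± 3.21 (36 cells). Cat was below 50 TPM in 21 of 47 CD11b+CD48+SK cells and 16 of 36 BM HSC, but in 7 of 41 WT-MPP and 6 of 56 FL HSC.

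CD11b+CD48+SK cells were lower in Cat by 1.88 than WT-MPP and by 1.92 than FL HSC, and they differed from BM HSC by 0.11. BM HSC were lower by 1.76 than WT-MPP and by 1.81 than FL HSC. Few genes were higher by the fold in WT-MPP than in BM HSC, 2.67% of them, whereas 25.6% were higher in FL HSC than in BM HSC. Taken between the logs of the mean TPM, these differences from BM HSC were 0.63 and 0.50, under the fold, and CD11b+CD48+SK cells minus BM HSC gave -0.66. The highest BM HSC held more Cat than any other cell.

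Gpx1, the selenium-containing glutathione peroxidase of the cytosol, was the highest gene of the 10 in all FL HSC and CD11b+CD48+SK cells, in 40 of 41 WT-MPP and in 35 of 36 BM HSC. Its median was 2457 TPM in BM HSC (742 to 6950.1 TPM), 3491 TPM in FL HSC (1974 to 6456 TPM), 4178 TPM in WT-MPP (1570.0 to 13374 TPM) and 4482 TPM in CD11b+CD48+SK cells (2933 to 7754 TPM). By mean TPM it ranked between 7 and 23 among all genes listed. The largest difference, 0.85 above BM HSC in CD11b+CD48+SK cells, was under the fold (1.03, past it, with cells scaled by the median ratio), and it was the only one of 60 comparisons of a gene between populations in which the interquartile ranges over cells lay apart. Gpx1 varied least between cells, with an SD of 0.35 on the log2 scale in CD11b+CD48+SK cells and 0.34 in FL HSC.

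**Figure D2:**
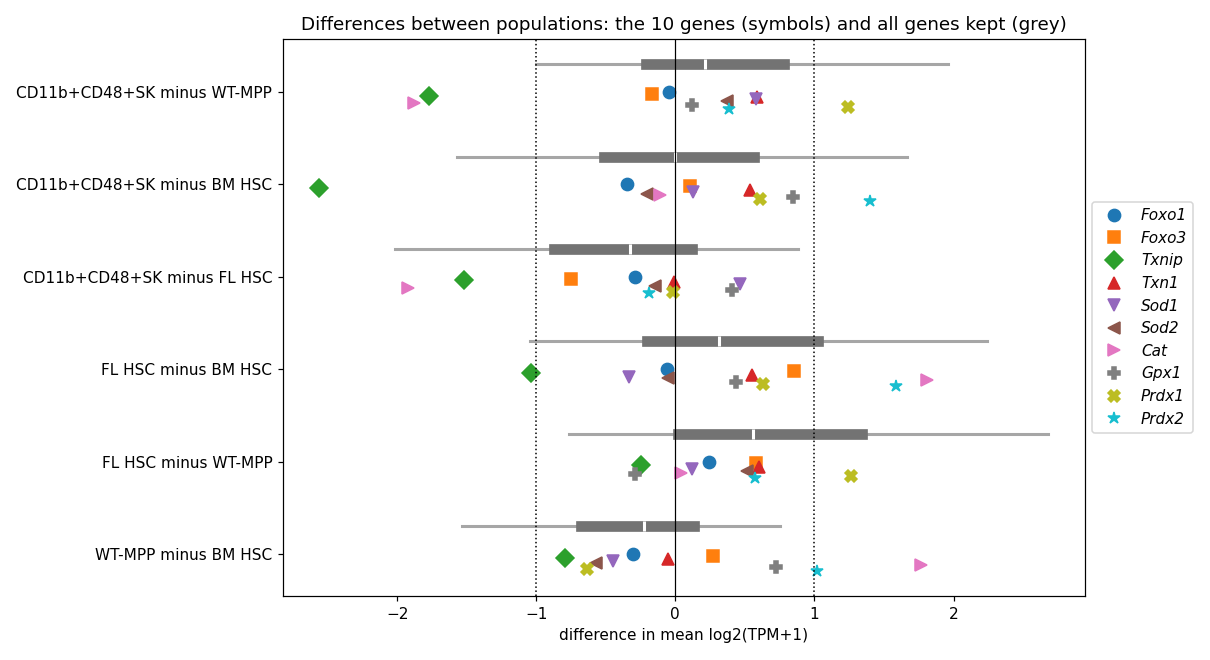
Differences in mean log2(TPM+1) between the populations named on each line, with 1 symbol per gene. Grey bars show the middle 50% (thick) and 90% (thin) of all 10856 genes kept, the white tick their median, and dotted lines the fold of 1. Txnip lies left of the thin bar for CD11b+CD48+SK cells against either adult control population, and Cat lies right of it for WT-MPP against BM HSC.

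Over the 6 comparisons 13 of the 60 differences reached the fold, 7 of them higher and 6 lower in the first population named. The counts were 1 higher and 2 lower for CD11b+CD48+SK cells against WT-MPP (19% and 5.01% of all genes), 1 and 1 against BM HSC (13.4% and 11.8%), and 0 and 2 against FL HSC (4.02% and 20.9%). FL HSC against BM HSC gave 2 higher and 1 lower (25.6% and 5.44%), and FL HSC against WT-MPP 1 higher and 0 lower (33.9% and 3.08%). WT-MPP against BM HSC gave 2 higher and 0 lower (2.67% and 14.49%). All comparisons that share a population share its cells and are not independent of each other. On this scale no difference of a dismutase, of Txn1, of Gpx1 or of a Foxo gene reached the fold, though the alternatives given beside Foxo1, Foxo3, Sod2 and Gpx1 took single differences past it. Txnip was highest in BM HSC, where Cat was low.

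A typical cell expressed 8 of the 10 genes in every population, the undetected ones being mostly the Foxo genes. The fewest was 6 genes in a CD11b+CD48+SK cell, and 10 genes were reached only in BM HSC and FL HSC. Sod1 and Sod2 were detected together in between 80.5% of WT-MPP (65.1 to 91.2%) and 92.9% of FL HSC (82.7 to 98.0%), and Prdx1 with Prdx2 in all cells. Cat exceeded Txnip in 13.9% of BM HSC (4.67 to 29.5%), 42.9% of FL HSC (29.7 to 56.8%), 29.3% of WT-MPP (16.1 to 45.5%) and 38.3% of CD11b+CD48+SK cells (24.5 to 53.6%).

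The genes were next compared with each other over the cells of each population by Spearman's rho. The cells of a population share their collection, and the values of a cell share its depth and its scaling, so rho is a description. Foxo1 and Foxo3 are left out because most of their values are 0. Among the 28 pairs of the other 8 genes, 4 had a rho above 0 in all populations (14.3%) and 5 below 0 in all (17.9%). Over all 608856 pairs of the 1104 genes that reached 80% detection in each population, these shares were 10.5% and 7.34%, the median of the mean rho was 0.01, and the middle 95% of mean rho lay between -0.19 and 0.22.

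Txnip and Cat had a rho of 0.45 in BM HSC and of 0.34 in each of the other populations. In each population, the cells with more of the thioredoxin inhibitor tended to hold more catalase, although the population means of these genes did not follow each other. Taking the number of genes detected per cell into account left values of 0.44 in BM HSC, 0.31 in CD11b+CD48+SK cells and 0.34 in the others. Pearson's r on log values was lower in FL HSC, at 0.13, where 6 cells were below 1 TPM of Cat.

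Txnip and Txn1 had a rho of -0.45 in BM HSC, -0.45 in WT-MPP, -0.29 in CD11b+CD48+SK cells and -0.16 in FL HSC. The inhibitor was thus lower where its target was higher. This relation was weak in FL HSC, and in CD11b+CD48+SK cells it came to -0.06 given the number of genes detected. Txn1 and Cat had a rho of -0.47 in WT-MPP, -0.31 in FL HSC and -0.23 in BM HSC, and -0.01 in CD11b+CD48+SK cells.

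Txn1 and Prdx1, electron donor and peroxidase, had a rho of 0.40 in BM HSC, 0.28 in WT-MPP, 0.31 in CD11b+CD48+SK cells and 0.33 in FL HSC. Txn1 and Sod1 had 0.28, 0.05, 0.49 and 0.28 in the same order. The pairs with a mean rho beyond the middle 95% of all pairs were Txnip with Cat (0.37), Txn1 with Prdx1 (0.33) and Txn1 with Sod1 (0.27) on the upper side, and Txnip with Txn1 (-0.34) and Txn1 with Cat (-0.26) on the lower. Prdx1 and Prdx2, close relatives in sequence and task, had a mean rho of 0.12, and Sod1 and Sod2 of 0.01.

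**Figure D3:**
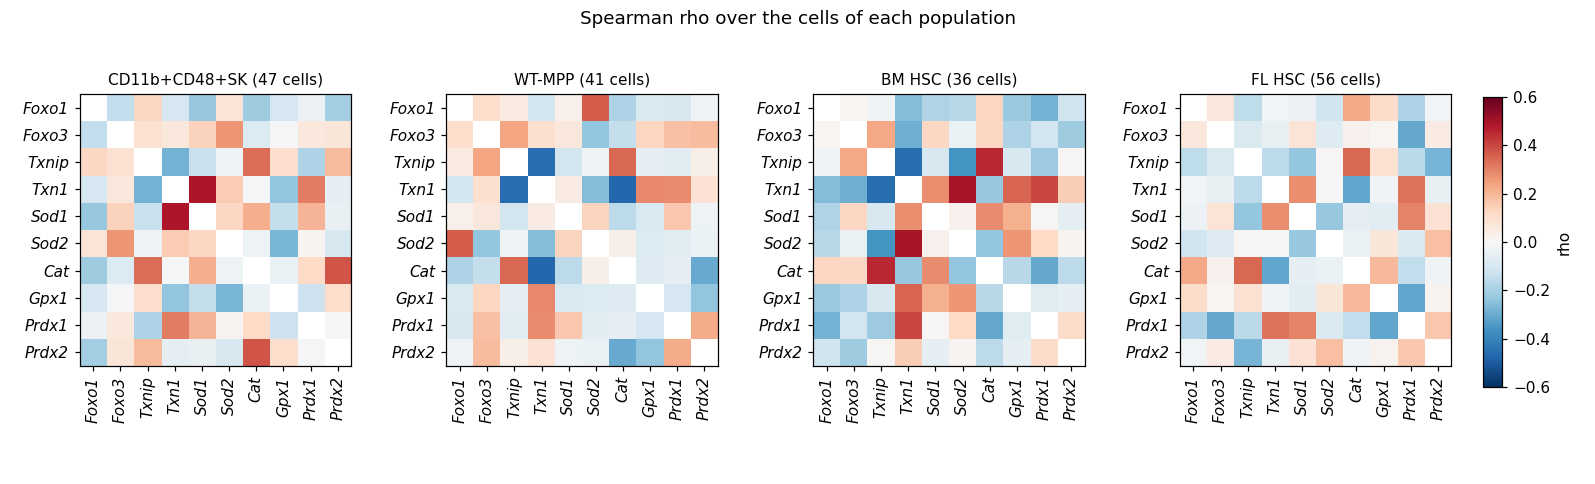
Spearman's rho for each pair of the 10 genes over the cells of each population, red for positive and blue for negative. Txnip with Cat and Txn1 with Prdx1 are red in all 4 panels and Txnip with Txn1 is blue in all 4, while many other pairs change colour between panels.

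The same genes were compared with the summed level of the proliferation genes in each cell. Txnip had a rho with that sum of -0.66 in CD11b+CD48+SK cells, -0.36 in BM HSC, -0.17 in FL HSC and -0.01 in WT-MPP. Txn1 had 0.59, 0.49, 0.41 and -0.22 in the same order, and Prdx1 0.42, 0.26, 0.47 and -0.13. Cells with a high sum therefore had less Txnip, most clearly among CD11b+CD48+SK cells, and more Txn1 and Prdx1, except in WT-MPP. Pcna weighed heavily in the sum of every population. Its median was 266 TPM in BM HSC, beside 372 TPM for the sum. The same medians were 245 and 309 TPM among WT-MPP, 532 and 871 TPM among CD11b+CD48+SK cells and 358 and 686 TPM among FL HSC. Mki67 was detected in no cell of either adult control population, nor was Birc5 in any BM HSC or Rrm2 in any WT-MPP. The part of Pcna in these rho values was not tested. In CD11b+CD48+SK cells the sum also had a rho of 0.67 with the number of genes detected, and Txnip itself one of -0.51 with that number. Given the number of genes, Txnip had a rho with proliferation of -0.50 in CD11b+CD48+SK cells, -0.38 in BM HSC, -0.10 in FL HSC and -0.01 in WT-MPP, and Txn1 had 0.42, 0.53, 0.34 and -0.27. Cat had rho between -0.25 and -0.10 with proliferation in the 4 populations.

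Among the other markers, the stem cell list gave Txnip a rho of 0.37 in CD11b+CD48+SK cells, 0.32 in BM HSC, 0.20 in FL HSC and 0.07 in WT-MPP, and the first of these was 0.22 given the number of genes. That list mixes genes that mark HSC with genes that mark progenitors (Flt3 and Cd48). The lymphoid list gave Txnip 0.30 in CD11b+CD48+SK cells, 0.25 in BM HSC, 0.07 in FL HSC and 0.29 in WT-MPP. The myeloid list gave Txnip 0.51 in FL HSC and between -0.03 and 0.17 elsewhere. Single genes weighed heavily in these sums. The lymphoid sum had the median of Cd79b alone in BM HSC (193 TPM), FL HSC (187 TPM) and WT-MPP (2.31 TPM). In CD11b+CD48+SK cells Dntt had a median of 262 TPM, beside 406 TPM for the lymphoid sum. In FL HSC Lyz2 had 1156 TPM, beside 1702 TPM for the myeloid sum. The part of these genes in the rho values was not tested.

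**Figure D4:**
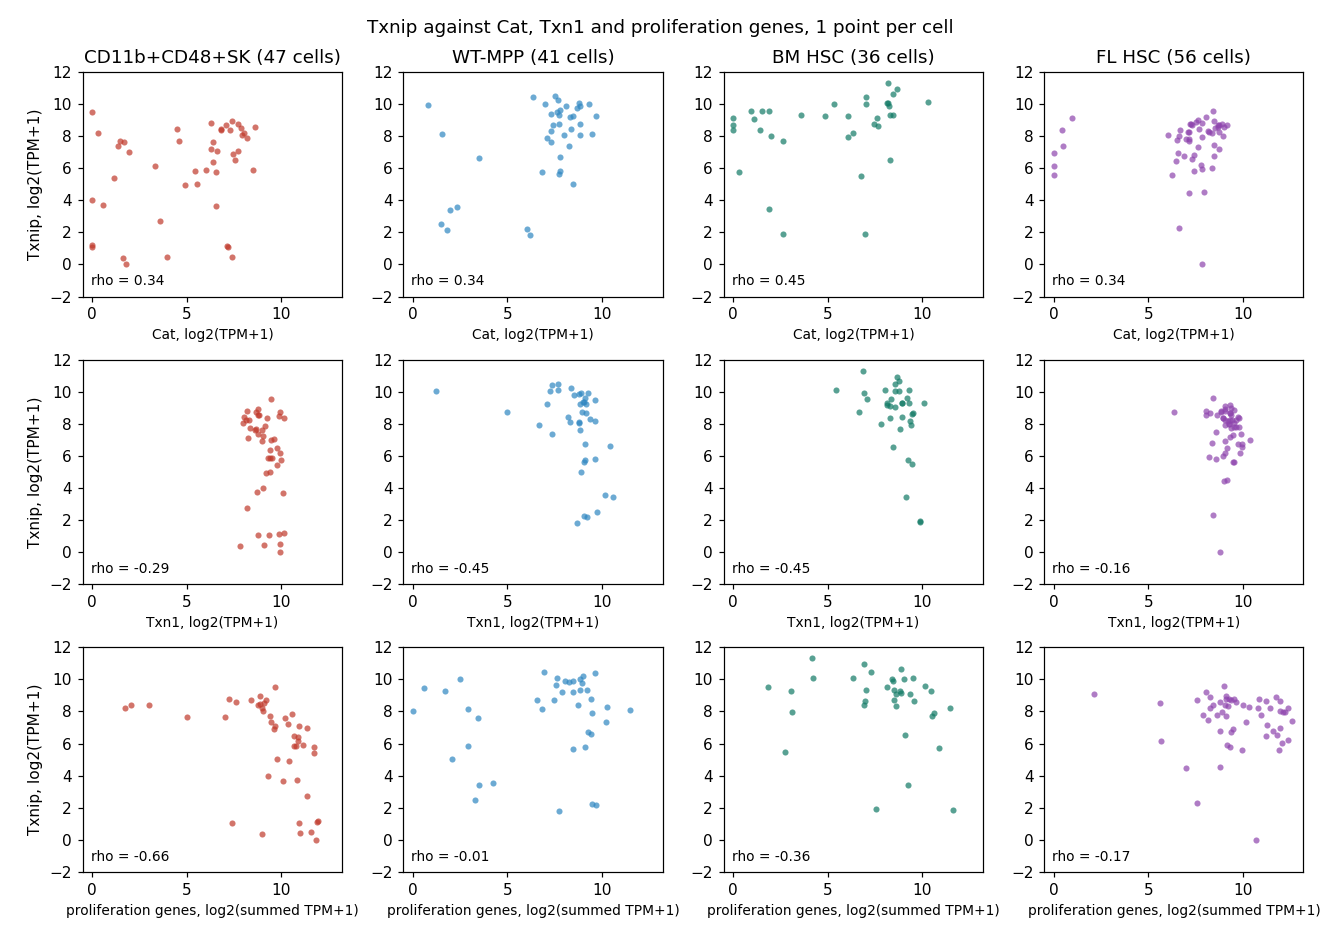
Txnip in each cell against Cat (top), Txn1 (middle) and the summed TPM of 11 proliferation genes (bottom), all on a log2 scale with a pseudocount of 1, by population. The bottom left panel shows lower Txnip in CD11b+CD48+SK cells with high proliferation sums (rho -0.66), which the WT-MPP panel beside it lacks (rho -0.01).

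The genes most like each member in this sense were sought among 5391 genes that reached 20% detection in each population, by the mean rho over the 4 populations. For Txnip they were Gpr56 (0.40), Serinc3 (0.39) and Map1lc3b (0.38), the last an autophagy gene and a known FOXO target. Txnip was itself the gene most like Cat (0.37), ahead of Sash3 (0.33) and Tmem59 (0.31).

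For Txn1 the nearest genes were Ppia (0.52), which encodes cyclophilin A, the histone variant gene H2afz (0.49) and the nucleoside diphosphate kinase gene Nme1 (0.41). Ppia (0.40), Erh (0.39) and Nme1 (0.38) led for Prdx1, so that Ppia and Nme1 stood in both lists. In WT-MPP the rho of Prdx1 was 0.02 with Ppia and 0.03 with Erh, but 0.42 with Nme1. Sod1 had Sdhd (0.35), Pcna (0.33) and Dut (0.31), the last 2 being genes of DNA synthesis. The rho of Sod1 with Pcna and Dut was 0.61 and 0.64 in FL HSC, but 0.11 and 0.03 in WT-MPP. Sod2 had Ranbp1 (0.30), Myh9 (0.26) and Uqcrq (0.26). Gpx1 had Shfm1 (0.33), Arhgdib (0.33) and Cryzl1 (0.32), and Prdx2 had D10Wsu52e (0.26), Dnaja2 (0.25) and Trap1 (0.25).

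The remaining genes of these pathways were read from 9 lists. Of the 24 genes kept among the Foxo family and its upstream regulators, 1 was higher and 2 lower in CD11b+CD48+SK cells against WT-MPP, beside 19% and 5.01% of all genes, and 1 higher and 3 lower in FL HSC against BM HSC, beside 25.6% and 5.44%. Pik3r1, the regulatory subunit of PI3 kinase, was lower by 1.71 and Stk4, a kinase that acts on FOXO proteins, by 1.33, while Ywhaq, a 14-3-3 protein of the kind that holds FOXO in the cytoplasm, was higher by 1.26. FL HSC differed from BM HSC in Inpp5d, which encodes the phosphatase SHIP1 (lower by 1.87), Akt2 (lower by 1.59) and Skp2 (higher by 1.27).

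Of the 27 known FOXO targets kept, 4 were higher and 6 lower in CD11b+CD48+SK cells against WT-MPP, beside 19% and 5.01% of all genes, and 3 were higher and 11 lower than in BM HSC, beside 13.4% and 11.8%. Tsc22d3, the glucocorticoid-induced leucine zipper gene, was lower by 2.90 than in WT-MPP and by 3.81 than in BM HSC. Its medians were 792 TPM in BM HSC, 131 TPM in FL HSC, 493 TPM in WT-MPP and 87.2 TPM in CD11b+CD48+SK cells, the order Txnip had among the adult populations, and its rho with Txnip was between 0.27 and 0.39 in each. Bnip3, a mitophagy gene, was lower by 2.15 than in WT-MPP. Ccnd1, a cyclin gene that FOXO proteins repress, was among the 4 that were higher than in WT-MPP, by 1.78. The list thus mixes induced and repressed targets, and FOXO activity was not tested.

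Of the FOXO targets 4 were higher and 6 lower in FL HSC against BM HSC, beside 25.6% and 5.44% of all genes. Sesn1, a sestrin gene, was higher by 2.35 in FL HSC, and Tsc22d3 was lower by 2.73 and Cdkn1b, which encodes the cell cycle inhibitor p27, by 2.0.

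Of the 11 relatives and regulators of Txnip kept, 3 were higher and 3 lower in CD11b+CD48+SK cells against WT-MPP (all genes 19% and 5.01%), 2 and 6 against BM HSC (13.4% and 11.8%), and 3 and 3 in FL HSC against BM HSC (25.6% and 5.44%). Arrdc3, another alpha-arrestin, was lower by 1.65 than in WT-MPP. On the mean of logs the arrestin gene Arrdc1 was higher by 1.73 and Arrb2 by 1.08, but these depended on the averaging. The mean TPM of Arrdc1 was 198 TPM in CD11b+CD48+SK cells and 205 TPM in WT-MPP, and that of Arrb2 was 24.6 and 19.1 TPM. The glucose transporter gene Slc2a3 was lower by 2.40. In FL HSC the glucose transporter gene Slc2a1 was higher by 2.23 than in BM HSC. Mlx, which encodes a factor of the carbohydrate response element, was higher by 2.16, while its partner Mlxip was lower by 1.47 and the stress gene Ddit4 by 2.09. Mlx too depended on the averaging, with a mean of 76.3 TPM in FL HSC and 71.9 TPM in BM HSC. The same means were 91.7 and 43.8 TPM for Slc2a1 and 24.8 and 92.9 TPM for Mlxip.

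All 22 other thioredoxin and peroxiredoxin genes were kept. In CD11b+CD48+SK cells 7 were higher and 1 lower than in WT-MPP, beside 19% and 5.01% of all genes, led by Glrx5 (2.46), a mitochondrial glutaredoxin, and Prdx3 (2.03), the mitochondrial peroxiredoxin, and Srxn1, which repairs peroxiredoxins, was lower by 1.13. The 7 higher genes depended on the averaging. Their mean TPM, with WT-MPP second, was 380 against 194 for Glrx5, 252 against 248 for Prdx3 and 414 against 358 for Txn2. It was 86.5 against 75.3 for Txndc5, 136 against 121 for Txndc17, 175 against 165 for Msra and 141 against 149 for Msrb2. In FL HSC 10 were higher and none lower than in BM HSC, beside 25.6% and 5.44% of all genes, led by Prdx4 (2.75) and Txndc12 (2.52) of the endoplasmic reticulum. Against WT-MPP 16 were higher in FL HSC, beside 33.9% of all genes. These counts too depended on the averaging. Mean TPM in FL HSC and BM HSC was 379 and 189 for Prdx4, 120 and 66.2 for Txndc12 and 287 and 255 for Glrx5. It was 356 and 309 for Txn2, 191 and 185 for Prdx3 and 151 and 141 for Txndc17. Against WT-MPP, mean TPM in FL HSC was lower for Prdx3 (191 against 248) and higher for Prdx4 (379 against 145). On the mean of logs, the median difference of the list was 0.67, 0.75 and 1.28 in these 3 comparisons, and that of all genes kept was 0.21, 0.31 and 0.56.

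Of the 22 glutathione genes kept, 3 were higher and 5 lower in CD11b+CD48+SK cells against WT-MPP (all genes 19% and 5.01%), and 4 higher and 2 lower in FL HSC against BM HSC (25.6% and 5.44%). The membrane glutathione transferases changed places between populations on the mean of logs. Mgst2 was highest in CD11b+CD48+SK cells (3.92 above WT-MPP), and Mgst1 and Mgst3 in FL HSC (4.20 and 3.52 above BM HSC). By mean TPM Mgst1 was at 219 in WT-MPP, 212 in FL HSC and 89.6 in BM HSC. Mgst3 was at 167 in FL HSC and 103 in BM HSC, and Mgst2 at 184 in CD11b+CD48+SK cells and 5.40 in WT-MPP. Hagh, a glyoxalase gene, was higher by 2.52 in CD11b+CD48+SK cells against WT-MPP, and Gsta4 was lower by 2.12. Gstt1 was lower by 1.91 in CD11b+CD48+SK cells against WT-MPP and by 3.19 in FL HSC than in BM HSC, and Gclm, the modifier subunit of glutathione synthesis, was lower by 2.07 in FL HSC.

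Of the 15 Nrf2 pathway genes kept, 2 were higher and 2 lower in CD11b+CD48+SK cells against WT-MPP, beside 19% and 5.01% of all genes. Nfe2l2, the gene of Nrf2 itself, was lower by 1.42, and its target Osgin1 by 1.90. Pgd and Taldo1, enzymes of the pentose phosphate pathway, were higher by 2.73 and 1.0. In FL HSC against BM HSC 3 genes of this list were higher and 2 lower, beside 25.6% and 5.44% of all genes. Pgd and Taldo1 were higher there too, by 2.21 and 1.61, and the small Maf genes Mafk and Mafg were lower by 1.90 and 1.06. Of the 9 genes kept for superoxide, haem and metal defence, 1 was higher and 0 lower in each of these comparisons, beside 19% and 25.6% of all genes higher. It was Park7 in CD11b+CD48+SK cells against WT-MPP (1.08), and Ccs, the copper chaperone of SOD1, in FL HSC against BM HSC (1.53).

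Of the 11 oxidant-producing enzymes kept, 3 were higher and 1 lower in CD11b+CD48+SK cells against WT-MPP, beside 19% and 5.01% of all genes. Mpo, the myeloperoxidase of neutrophil granules, was higher by 5.49 than in WT-MPP, with a median of 110 TPM against 0 TPM, and Ncf4, a subunit of the phagocyte NADPH oxidase, by 4.02, while Maoa was lower by 1.15. The myeloid marker list includes Mpo itself, and of its 8 genes kept 2 were higher and 1 lower than in WT-MPP. It summed to a median of 2041 TPM in CD11b+CD48+SK cells (559 to 8461 TPM) and 1483 TPM in WT-MPP (highest 4568 TPM), with 10 of its 12 genes seen in CD11b+CD48+SK cells and 6 in WT-MPP, and Elane and Csf1r at 0 in both. Its part in these differences was not tested. In FL HSC against BM HSC 3 of the oxidant-producing enzymes were higher and 1 lower, beside 25.6% and 5.44% of all genes. Cyba, which encodes a membrane subunit of the NADPH oxidase, was higher by 1.05 there, and Xdh was lower by 1.79. Of the 10 HSC redox regulators kept, 0 were higher and 2 lower in CD11b+CD48+SK cells against WT-MPP, beside 19% and 5.01% of all genes. The 2 were Meis1, lower by 2.55, and Hif1a, by 1.04. In FL HSC against BM HSC 3 were higher and 0 lower, beside 25.6% and 5.44%, among them Trp53 (1.40) and Mapk14 (1.22).

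**Figure D5:**
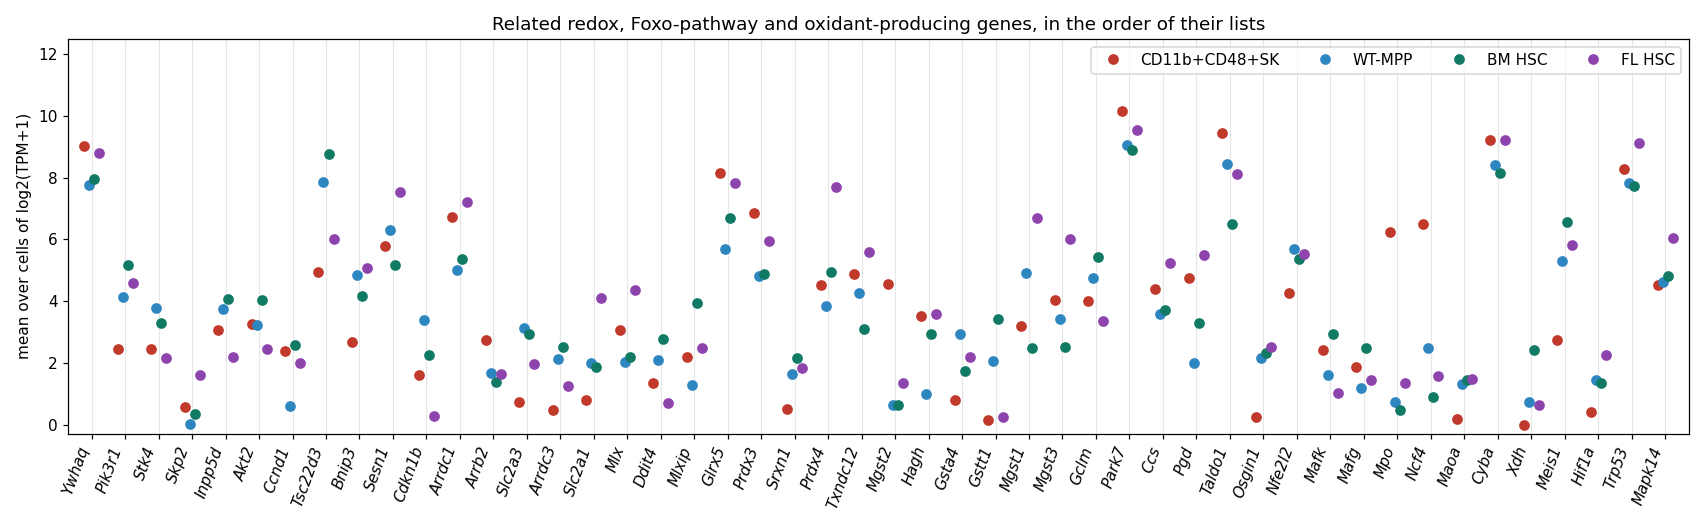
Mean over cells of log2(TPM+1) for the 48 related genes named here, in the order of their lists, with 1 point per population. Mgst2, Mpo and Ncf4 are highest in CD11b+CD48+SK cells (red), and Prdx4, Mgst1, Mgst3 and Slc2a1 in FL HSC (purple).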

How the data were processed

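From sorted single cells of the 4 populations, cDNA was amplified with the Discover-sc WTA Kit V2 and sequenced. The deposited values are TPM, which the authors made from the reads. The submitters' processing notes name bcl2fastq, HISAT2 2.1.0, SAMtools 0.1.19, StringTie 1.3.4 and the build mm10, and the gene annotation is not given in the sources used here. TPM scales a cell to a fixed sum, so a gene's level depends on the other genes, and read depth is lost. A column named for a WT-MPP cell that no sample matches (1 column) was not used.

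Genes detected in 10% of the cells of any population were kept (10856 of 14825). Values were log2(TPM+1). Shares carry exact 95% intervals. Spearman correlations were computed inside populations. Python 3.11.15, numpy 2.4.6, pandas 2.3.3, scipy 1.17.1 and matplotlib 3.10.9 were used, and the scripts were tested on simulated data. Named in the text were the 10 members, the 3 genes most like each, and in each related list the 2 largest differences either way, past the fold, for CD11b+CD48+SK minus WT-MPP and FL HSC minus BM HSC. Genes that met this rule but are not reported here were left out of the text and figures. The members and lists were chosen with earlier results of these data known. A few values of named genes in other comparisons and the promoters shown were picked after their values were seen. Promoters came from RefSeq (10 of 10 matched) and gene positions from GENCODE M21. No doublet search was run, since each library was 1 sorted cell. Alternatives covered the pseudocount, the averaging, the scaling, the filter, the detection level and the number of genes per cell.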

Additional observations from a re-analysis of the deposited data

How the results depend on the processing

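No paired analysis was possible because the numbers in the cell titles only name cells and no test was made. Leaving out replicates does not apply with 1 sample per population. All 13 differences past the fold kept their sign under the 7 alternatives tried for each, and 71 of these 91 values stayed past the fold. Of 323 values for the 47 differences under the fold, 11 were past it. The number of the 10 genes past the fold moved by over 1.5 times in these cases. With the log of the mean TPM it was 1 in place of 2 for CD11b+CD48+SK cells against BM HSC, 0 in place of 1 for FL HSC against WT-MPP and 0 in place of 2 for WT-MPP against BM HSC. With the log of the median TPM, an alternative chosen after seeing the data, it was 1 for CD11b+CD48+SK cells against BM HSC, 1 in place of 2 against FL HSC, 0 for FL HSC against WT-MPP and 1 for WT-MPP against BM HSC. A pseudocount of 0.1 gave 2 for FL HSC against WT-MPP, and a pseudocount of 10 gave 1 for WT-MPP against BM HSC. By log of the mean TPM, 10.3% of all genes were higher and 24.1% lower in CD11b+CD48+SK cells when set against WT-MPP, the opposite balance to the mean of logs. The balance also turned for FL HSC against BM HSC (11.8% higher and 19.3% lower) and against WT-MPP (14.8% and 17.8%). It turned too for CD11b+CD48+SK cells against BM HSC (9.78% and 27.7%). In the remaining comparisons more genes were lower than higher by either average. Low cells weigh more on means of logs than on these other averages. Within cells of 4000 to 5500 genes detected, Prdx1 in CD11b+CD48+SK cells lay 0.60 above WT-MPP and Prdx2 in WT-MPP 0.04 above BM HSC.

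Among the 151 related genes kept, 46 were past the fold for CD11b+CD48+SK cells against WT-MPP, 76 with a pseudocount of 0.1 and 19 with 10. For FL HSC against BM HSC 49 became 22 with a pseudocount of 10. Pairs with 1 sign of rho in all populations numbered 9 of 28, between 7 and 8 by Pearson's r, by partial rho and within the gene window, and 17 with cells scaled by the median ratio. The cause was not tested. The number of cells limits every share, and the low levels of Foxo1 and Foxo3 limit what can be said of them.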
